A study of Mus musculus with 26 samples.

Results

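Tnf, Lta and Ltb lie side by side on mouse chromosome 17, and with the receptor genes Tnfrsf1a and Tnfrsf1b, the adaptor genes Traf1 and Traf2 and the related ligand gene Tnfsf9 they form the set of 8 genes described here. Its members were the ATAC-seq peaks, regions of open chromatin, whose nearest annotated gene in the deposited tables was one of the 8. They numbered 79 of 96238 nuclear peaks in the table of inbred mice and 160 of 213225 autosomal peaks in the table of hybrid mice. The inbred members comprised 25 peaks of Tnfrsf1b, 12 of Traf1, 10 of Tnfrsf1a, 9 of Tnfsf9, 8 of Lta, 7 of Traf2, 6 of Tnf and 2 of Ltb, and 13 of the 79 lay within 1 kb of the annotated start.

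The study sorted Kupffer cells, macrophages that reside in the liver, from male mice of the inbred strains A/J, BALB/cJ and C57BL/6J and of CB6F1/J, the F1 cross of a C57BL/6J male with a BALB/cJ female. Mice were untreated (A/J, n = 4; BALB/cJ, n = 4; C57BL/6J, n = 4; CB6F1/J, n = 4) or had received lipopolysaccharide (LPS), a bacterial cell wall component, at 0.1 mg/kg into the peritoneum 2 h earlier (C57BL/6J, n = 3; BALB/cJ, n = 2; CB6F1/J, n = 5). Controls carried no sham injection. The labels give treated and control mice alike as fasted overnight, while the headers of the deposited peak lists name the inbred LPS libraries as fasted and all controls as chow. The comparisons asked how the chromatin at these genes differs between strains, how it responds to LPS, and which strain differences persist between the alleles that share a nucleus in the hybrid.

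TNF is made as a membrane-bound trimer, is cut free by a protease and binds the receptors encoded by Tnfrsf1a and Tnfrsf1b. The first carries a death domain, and both act through complexes that include TRAF2 and switch on NF-κB. Lymphotoxin-α, from Lta, binds the same receptors, and together with lymphotoxin-β, from Ltb, it forms a membrane complex that binds another receptor. TRAF1 is an NF-κB target that pairs with TRAF2, and Tnfsf9 encodes the ligand of the costimulatory receptor 4-1BB. Macrophages, Kupffer cells among them, are a main source of TNF after LPS reaches the liver.

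The counts, of sequence tags assigned to the 1000-bp window around each peak centre, totalled 2.08 to 7.54 M (mega) tags per inbred library, apart from BALB/cJ control replicate 4 with 47.2 M tags. In the hybrids, tags that spanned a variant and could be given to an allele totalled 0.263 to 0.573 M tags per allele and animal. All 8 Kupffer cell marker genes had a peak at the start, with a summed level of 798 to 956 normalised tags in control libraries and 542 to 705 after LPS. None of the 11 lymphocyte and 4 hepatocyte marker genes had such a peak in the table, and 1 of 5 neutrophil, 1 of 4 monocyte and 2 of 4 sinusoidal endothelial genes did. The monocyte marker (Plac8) held 1.32 to 18.2 normalised tags in controls and 6.10 to 34.0 after LPS. The neutrophil marker (S100a8) held 58.5 to 89.9 in BALB/cJ controls, 29.6 to 63.8 in C57BL/6J and at most 33.9 in A/J. The summed endothelial markers (Lyve1, Kdr) held 33.0 to 91.3 in BALB/cJ controls, at most 23.9 in C57BL/6J and 18.3 to 48.5 in A/J. The part of these markers in the LPS and strain results was not tested. In such bulk libraries fewer cells of a type and less open chromatin per cell cannot be told apart. C57BL/6J LPS replicate 1 stood apart: over the 15161 peaks that rose in BALB/cJ, its median log2 ratio to the C57BL/6J control mean was 0.74, against 1.61 and 1.75 in replicates 2 and 3. Library names in the headers of the deposited peak lists carry an earlier date for all controls than for the inbred LPS libraries, with an LPS date of its own for each strain, so treatment and date, and strain and date among LPS libraries, cannot be told apart. The LPS animals of the hybrids fall into a first and a second date, and date was no term in the hybrid fits. The windows of 50 of the 79 inbred members and 128 of the 160 hybrid members overlapped that of another member, so neighbouring peaks share tags and are not independent.

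The sequences below are of the mouse reference (GRCm38, equal to mm10; C57BL/6J) as RefSeq gives it, read 5′ to 3′ on the strand of the named gene. They are shown because the strain, allele and LPS results turn on these peaks. Capitals mark matches, on either strand, to an NF-κB site (the kappa B consensus), to the AP-1 site TGANTCA, to the PU.1 site GAGGAAGT or, just before the Tnf start, to the TATA box TATAAA. Of all 96238 inbred peaks, 6.82% held the kappa B consensus, 14.3% the AP-1 site, 8.61% the PU.1 site and 7.18% the TATA box, and 12, 14, 4 and 2 of the 79 members did. A match describes the letters only.
Tnf, the part of the -49 bp peak before the start, chr17:35202008-35202156, minus strand: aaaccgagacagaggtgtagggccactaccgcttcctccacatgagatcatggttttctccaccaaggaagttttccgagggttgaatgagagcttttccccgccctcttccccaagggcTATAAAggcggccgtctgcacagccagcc
Tnf, -587 bp peak, upstream of the start, chr17:35202494-35202694, minus strand, with a PU.1 and then a kappa B match: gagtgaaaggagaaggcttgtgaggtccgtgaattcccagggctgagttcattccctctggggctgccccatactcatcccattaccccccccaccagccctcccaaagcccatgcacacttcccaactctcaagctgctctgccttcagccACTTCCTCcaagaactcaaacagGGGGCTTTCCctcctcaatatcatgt
Tnf, +1381 bp peak, within the gene, chr17:35200526-35200726, minus strand, with an AP-1 match: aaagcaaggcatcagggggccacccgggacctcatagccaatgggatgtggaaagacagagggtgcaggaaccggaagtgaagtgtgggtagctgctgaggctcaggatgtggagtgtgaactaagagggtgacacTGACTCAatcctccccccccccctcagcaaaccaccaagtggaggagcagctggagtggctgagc
Ltb, -1321 bp peak, intergenic, chr17:35193086-35193286, plus strand: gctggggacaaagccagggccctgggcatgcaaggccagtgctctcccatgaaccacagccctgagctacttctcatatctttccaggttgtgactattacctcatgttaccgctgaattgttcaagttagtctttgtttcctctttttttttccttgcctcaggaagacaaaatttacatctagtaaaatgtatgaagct
Tnfrsf1a, +10477 bp peak, intron 5, chr6:125360100-125360300, plus strand: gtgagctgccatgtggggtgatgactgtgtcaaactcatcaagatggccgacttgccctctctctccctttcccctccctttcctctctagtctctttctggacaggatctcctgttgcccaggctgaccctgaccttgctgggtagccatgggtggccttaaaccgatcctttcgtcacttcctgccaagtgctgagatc
Tnfrsf1b, -27187 bp peak, intron 12 of the neighbour Tnfrsf8, chr4:145273957-145274157, minus strand: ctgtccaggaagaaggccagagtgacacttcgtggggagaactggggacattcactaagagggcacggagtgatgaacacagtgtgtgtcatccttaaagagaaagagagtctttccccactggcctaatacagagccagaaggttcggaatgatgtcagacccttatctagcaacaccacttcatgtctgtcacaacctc
Traf1, +3049 bp peak, intron 3, chr2:34958623-34958823, minus strand, with an AP-1 match: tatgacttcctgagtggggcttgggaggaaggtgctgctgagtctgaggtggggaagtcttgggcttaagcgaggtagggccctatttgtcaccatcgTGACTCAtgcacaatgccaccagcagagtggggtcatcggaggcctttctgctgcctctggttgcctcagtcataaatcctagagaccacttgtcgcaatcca
Traf2, -2691 bp peak, intergenic, chr2:25549531-25549731, minus strand, with a pair of kappa B matches and an AP-1 match: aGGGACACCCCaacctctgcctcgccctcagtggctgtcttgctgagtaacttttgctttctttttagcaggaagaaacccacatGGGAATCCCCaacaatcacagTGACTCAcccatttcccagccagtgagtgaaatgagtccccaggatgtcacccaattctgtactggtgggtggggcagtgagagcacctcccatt

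In untreated mice the promoter of Traf2 was the most accessible of the set, and those of Tnfsf9, Ltb and Traf1 were the least accessible over the pooled controls. The strongest peak within 1 kb of each start held, as normalised tags over the 12 control libraries, 342 ± 36.6 (SD) at Traf2, 146 ± 59.7 at Tnf, 67.5 ± 19.8 at Tnfrsf1b, 34.1 ± 9.44 at Tnfrsf1a, 15.9 ± 17.9 at Tnfsf9, 11.1 ± 8.53 at Ltb and 8.96 ± 3.97 at Traf1. The windows have the same width, so the levels can be set side by side. The levels at Traf2 (278 to 407) lay above those of every other gene in each control library. Below it, the ranges of all neighbours in this order overlapped, from Tnf (68.4 to 242) and Tnfrsf1b (34.6 to 102) down to Ltb (1.33 to 28.4) and Traf1 (3.96 to 17.3). The order of the lowest 3 depended on the strain, with control means in C57BL/6J, BALB/cJ and A/J of 30.7, 10.2 and 6.67 at Tnfsf9, 4.00, 10.4 and 18.9 at Ltb and 11.5, 7.03 and 8.40 at Traf1. Lta had no inbred peak within 1 kb of its start.

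At Tnf, the peak upstream of the promoter rose after LPS in BALB/cJ, and neither strain passed the test at the promoter itself. The promoter peak at -49 bp held 187, 223, 110 and 141 normalised tags in A/J controls, 107, 242, 75.2 and 68.4 in BALB/cJ controls and 156, 221, 122 and 99.7 in C57BL/6J controls. After LPS it held 95.5, 138 and 105 in C57BL/6J, while BALB/cJ held 115 and 114. C57BL/6J LPS replicate 1 lay just below the C57BL/6J controls and the other treated libraries lay inside the control range of their strain. Neither strain's log2 ratio (-0.40 with SE 0.31 in C57BL/6J, -0.08 with SE 0.34 in BALB/cJ) passed the test (edgeR quasi-likelihood adjusted p = 0.36 and 0.88). A 95% interval from the SE and the normal distribution ran from -0.996 to 0.20 in C57BL/6J and from -0.75 to 0.59 in BALB/cJ. The test itself allows a slightly wider range, so a fall at the fold threshold is not excluded in C57BL/6J. Without BALB/cJ control replicate 2, the highest control, the BALB/cJ value was 0.48 and still did not pass.

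The peak at -587 bp, which holds the kappa B match, held 33.0, 41.0, 14.8 and 3.13 normalised tags in BALB/cJ controls and 74.1 and 74.8 after LPS. In C57BL/6J it held 41.2, 36.9, 27.3 and 13.3 in controls and 29.5, 87.5 and 91.6 after LPS. The groups did not overlap in BALB/cJ, and in C57BL/6J only LPS replicate 1 lay within the control range. The peak rose in BALB/cJ by 1.87 on the log2 scale (SE 0.56, edgeR adjusted p = 0.0090), a call that DESeq2 did not make (adjusted p = 0.072). The C57BL/6J value of 1.22 (SE 0.50, edgeR adjusted p = 0.065) did not pass, nor did that of DESeq2 (1.35, adjusted p = 0.157). It passed in edgeR without C57BL/6J LPS replicate 1 (1.59, adjusted p = 0.014), in a fit of only the groups compared (adjusted p = 0.013) and with total-count scaling (1.33, adjusted p = 0.042). The peak at +1381 bp held 80.6 to 140 in C57BL/6J controls, 178 to 238 in C57BL/6J LPS libraries, 73.8 to 138 in BALB/cJ controls and 179 and 192 in BALB/cJ LPS libraries. No LPS library of either strain fell into its control range, and the log2 ratios of 0.91 (SE 0.24, edgeR adjusted p = 0.0052) and 0.86 (SE 0.27, adjusted p = 0.013) passed the p threshold but not the fold threshold of 1. DESeq2 called this +1381 bp peak higher in C57BL/6J (1.02, adjusted p = 0.0013) and not in BALB/cJ (0.94), and edgeR called it in C57BL/6J without LPS replicate 1 (1.04, adjusted p = 0.0026). Among the strains, no Tnf peak of the 5 tested was called in any control comparison. There edgeR gave an unadjusted p under 0.05 for 0 of the 5, and DESeq2 called 0. Over all tested peaks edgeR gave such a p for 11813 of 52386 between C57BL/6J and BALB/cJ. Between A/J and BALB/cJ it did so for 9028 of 51793, and between A/J and C57BL/6J for 11263 of 52104. Without BALB/cJ control replicate 2 the promoter peak was called higher in A/J than in BALB/cJ (log2 ratio 1.04, edgeR adjusted p = 0.0042). Replicate 2 was the highest control of each strain at that peak (A/J 223, BALB/cJ 242, C57BL/6J 221). That fit left out the BALB/cJ one and kept the others, so the call is not read as a strain difference.

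**Figure D1:**
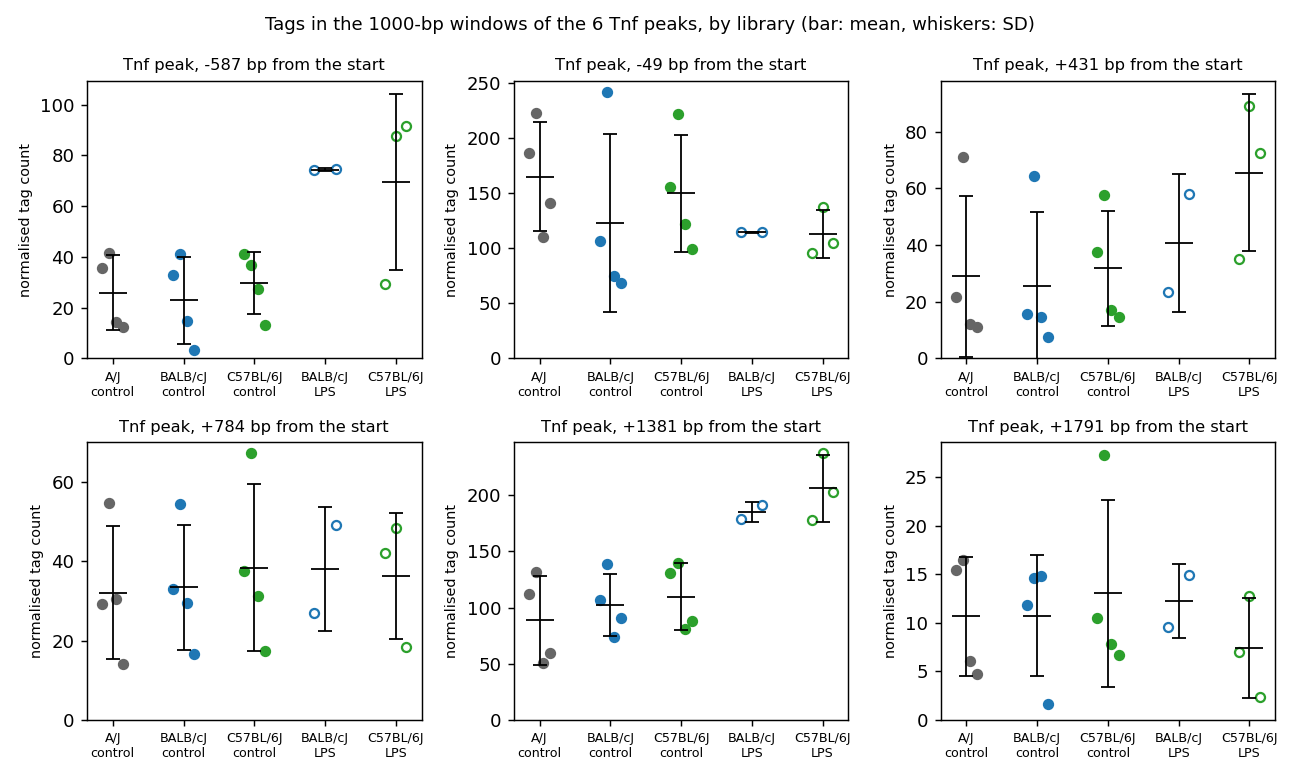
Normalised tags (y axis, linear from 0) in the windows of the 6 inbred Tnf peaks, by group (x axis). Each point is a library, filled for control and open for LPS, with the group mean as a bar and the SD as whiskers, which end at the axis where they would pass 0. The peak at -49 bp has LPS values of 95.5 to 138 inside the range of the 12 controls (68.4 to 242), while at +1381 bp the 5 LPS libraries (178 to 238) lie above the 12 controls (50.9 to 140).

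LPS raised more of the member peaks than it lowered in both inbred strains, and most of those that rose lay away from the gene starts. In C57BL/6J 20 of 77 tested members rose and 3 fell, against 12.3% and 8.07% of all tested peaks (20.4% called in all). In BALB/cJ 29 of 79 rose and 3 fell, against 16.2% and 11.3% (27.6% in all). The median log2 ratio was 0.41 over the tested members and -0.03 over all peaks in C57BL/6J. In BALB/cJ these were 0.71 and -0.07. With total-count scaling the medians over all peaks were 0.07 and 0.06. Within 1 kb of a start 1 of 12 tested members rose in C57BL/6J and 2 of 13 in BALB/cJ, and beyond it 19 of 65 (29.2%) and 27 of 66 (40.9%) did. Over all genes the shares were 2.85% and 15.1% in C57BL/6J, while BALB/cJ had 5.48% and 19.4%. Without C57BL/6J LPS replicate 1 the C57BL/6J counts were 26 higher and 6 lower of 77, against 14.9% and 10% of all peaks.

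Of the peaks that rose, 20 did so in both strains, 9 in BALB/cJ and not in C57BL/6J, and 0 the other way. The comparisons do not share control libraries, but a call in one strain alone is no difference. Tested directly, the LPS response differed between the strains at 0 of 79 members by edgeR, against 0.144% of all peaks (0.108% with the larger response in C57BL/6J, 0.0358% in BALB/cJ). At an unadjusted p under 0.05 there were 7 such members, against 7481 of all 95050 tested peaks, and DESeq2 called 0 members.

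**Figure D2:**
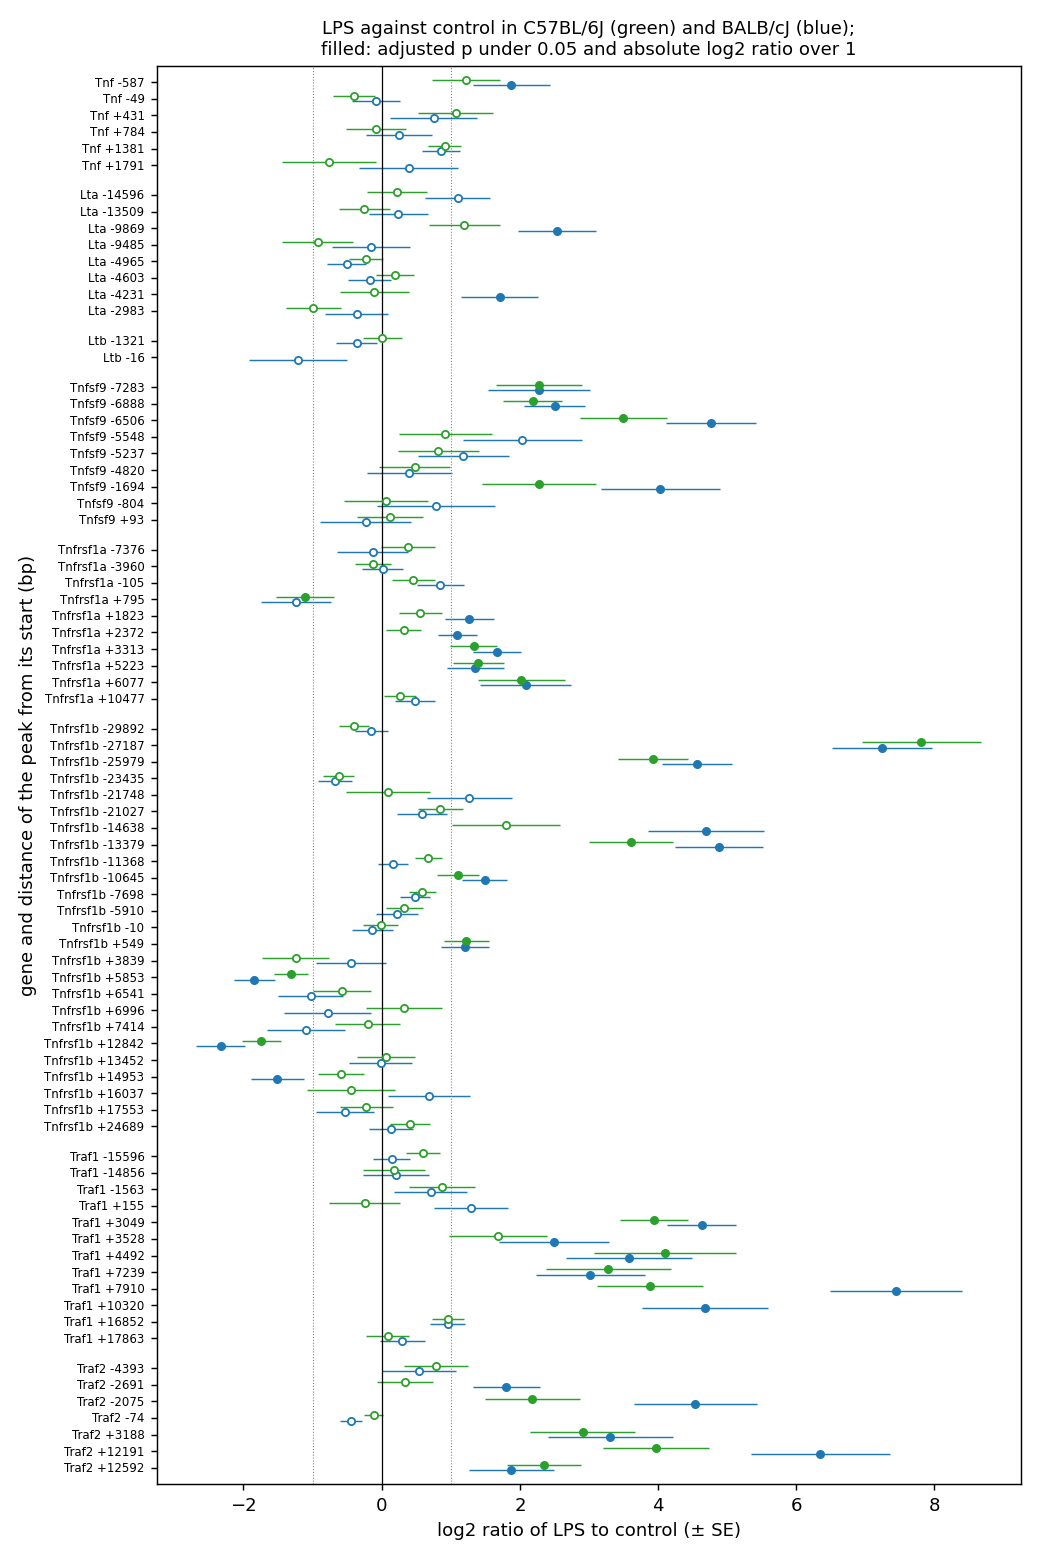
Log2 ratio of LPS to control (x axis, with SE as bars) at each inbred member peak, named by gene and distance from the start in bp (y axis), in C57BL/6J (green) and BALB/cJ (blue). Filled points are called (adjusted p under 0.05 and absolute log2 ratio over 1): 23 in C57BL/6J and 32 in BALB/cJ, of which 20 and 29 lie to the right of 0. At peaks with almost no control tags (Tnfrsf1b -27187 bp, Traf1 +4492 and +7910 bp, Traf2 +12191 bp) the fitted ratio depends on a prior count.

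The other ligands behaved unlike each other. At Tnfsf9, 4 of 9 tested peaks rose in each strain, and 3 of them lay within 1 kb of each other in intron 3 of the noncoding gene Gm11110. The peak at -6506 bp held 0 to 5.32 normalised tags in C57BL/6J controls and 8.43, 37.4 and 45.4 after LPS, with 1.32 to 4.03 and then 41.8 and 59.8 in BALB/cJ. Neither strain's groups overlapped, and LPS replicate 1 of C57BL/6J was the lowest treated library. The log2 ratios were 3.50 (SE 0.63, edgeR adjusted p = 0.00010) and 4.77 (SE 0.65, adjusted p = 1.16e-06). The Tnfsf9 promoter peak at +93 bp held 8.34 normalised tags on average in BALB/cJ and 31.9 in C57BL/6J after LPS, against 10.2 and 30.7 in controls, and was not called for LPS.

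At Lta, 0 of 8 peaks were called in C57BL/6J (1 lower without LPS replicate 1), where edgeR gave 2 an unadjusted p under 0.05 and DESeq2 called 0, and 2 of 8 rose in BALB/cJ. The one with the smallest p, at -9869 bp, held 1.32, 9.75, 2.68 and 3.59 normalised tags in BALB/cJ controls and 14.8 and 36.1 after LPS (log2 ratio 2.53, SE 0.57, edgeR adjusted p = 0.00075). It held 3.99 to 12.8 in C57BL/6J controls and 15.4 to 23.1 after LPS. Neither strain's groups overlapped there, and without BALB/cJ LPS replicate 2 the BALB/cJ value was 1.78 and no longer passed. Over all tested peaks edgeR gave 34773 of 91975 an unadjusted p under 0.05 in C57BL/6J and 39658 of 93363 in BALB/cJ. At Ltb 0 of 1 and 0 of 2 tested peaks were called, edgeR gave none an unadjusted p under 0.05, and DESeq2 called 0. Its promoter peak at -16 bp was low throughout, with 1.33 to 28.4 normalised tags in controls, A/J included, and 0.797 to 5.09 after LPS. In BALB/cJ the groups did not overlap there, with 7.74 to 16.6 in controls and 4.36 and 4.40 after LPS.

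The receptor genes held peaks that moved in both directions. At Tnfrsf1b, 5 of 25 peaks rose and 2 fell in C57BL/6J (7 and 5 without LPS replicate 1), and 6 rose and 3 fell in BALB/cJ. The call with the smallest p in both strains was the peak at -27187 bp, inside the neighbouring receptor gene Tnfrsf8, where the assignment to Tnfrsf1b rests on the nearest start alone. It held 0, 0, 1.30 and 0 normalised tags in C57BL/6J controls and 7.02, 74.7 and 145 after LPS. In BALB/cJ it held 1.32, 0.978, 0 and 0.554 in controls and 85.4 and 127 after LPS. The site was all but closed in every control and open in 4 of the 5 treated libraries, with LPS replicate 1 of C57BL/6J far below the rest. In C57BL/6J the controls held 1 tag in all and the LPS libraries 275, a ratio of 273 with a 95% counting interval from 48.5 to 10803 that covers counting error only (edgeR adjusted p = 9.72e-08). In BALB/cJ the log2 ratio was 7.24 (SE 0.72, adjusted p = 1.07e-08).

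Further peaks upstream of Tnfrsf1b rose too, and peaks in intron 1 of Tnfrsf1b fell. The peak at -25979 bp, also in intron 12 of Tnfrsf8, rose by a log2 ratio of 3.93 (SE 0.50) in C57BL/6J and 4.56 (SE 0.50) in BALB/cJ. The intergenic peak at -13379 bp rose by 3.61 (SE 0.61) and 4.88 (SE 0.64). The intron 1 peak at +12842 bp held 166, 204, 245 and 197 normalised tags in C57BL/6J controls and 124, 39.9 and 27.9 after LPS, with 121 to 180 and then 29.6 and 29.9 in BALB/cJ. It fell by 1.74 (SE 0.28, edgeR adjusted p = 2.76e-05) and by 2.33 (SE 0.35, adjusted p = 5.51e-06) on the log2 scale, and the peak at +5853 bp fell by 1.31 (SE 0.25) and by 1.84 (SE 0.30). No treated library lay in its control range at +12842 bp, and C57BL/6J LPS replicate 1 was again the nearest to it. The Tnfrsf1b promoter peak at -10 bp held 34.6 to 102 normalised tags in controls, A/J included, and 48.8 to 114 after LPS and was not called in either strain.

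**Figure D3:**
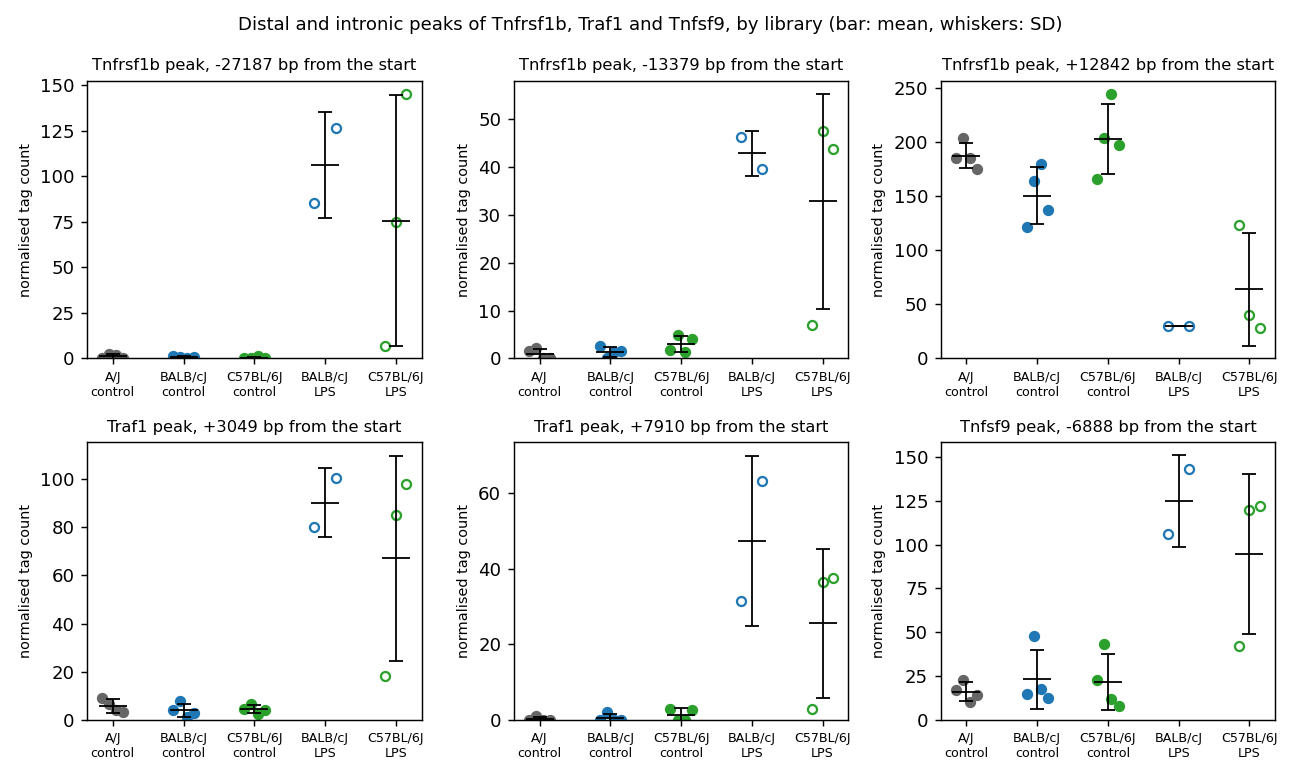
Normalised tags (y axis, linear from 0) at 6 distal and intronic peaks of Tnfrsf1b, Traf1 and Tnfsf9, by group (x axis). Points are libraries (open for LPS), bars group means and whiskers SD. The Tnfrsf1b peak at +12842 bp is lower in LPS libraries (27.9 to 124) than in C57BL/6J controls (166 to 245), and at the other 5 the LPS means are the higher ones, with C57BL/6J LPS replicate 1 the lowest treated library.

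At Tnfrsf1a, 3 of 10 peaks rose and 1 fell in C57BL/6J, and 5 rose and 0 fell in BALB/cJ. The fall, at +795 bp in intron 1 (log2 ratio -1.12, SE 0.42, edgeR adjusted p = 0.046), was not called by DESeq2 (adjusted p = 0.076), nor by edgeR without C57BL/6J LPS replicate 1 (adjusted p = 0.073). The leading one, in intron 1 at +3313 bp, held 23.2, 17.6, 32.5 and 26.6 normalised tags in C57BL/6J controls and 52.0, 70.5 and 65.3 after LPS. In BALB/cJ it held 21.1, 20.5, 33.6 and 42.8 in controls and 110 and 87.1 after LPS. The groups did not overlap in either strain, and the log2 ratios were 1.33 (SE 0.34, edgeR adjusted p = 0.0039) and 1.67 (SE 0.35, adjusted p = 0.00037). The Tnfrsf1a promoter peak at -105 bp, with 20.7 to 49.3 normalised tags in controls, A/J included, and 41.4 to 70.2 after LPS, was not called in either strain. Neither strain's groups overlapped there, with C57BL/6J controls at 30.6 to 40.0. The BALB/cJ log2 ratio of 0.85 (SE 0.34) missed the test (edgeR adjusted p = 0.054).

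Both adaptor genes gained intronic peaks. At Traf1, 4 of 11 tested peaks rose in C57BL/6J and 6 of 12 in BALB/cJ, and none fell. The intron 3 peak at +3049 bp, which holds an AP-1 match, held 4.64, 6.42, 2.60 and 3.99 normalised tags in C57BL/6J controls and 18.3, 84.9 and 98.0 after LPS. In BALB/cJ it held 3.96, 7.80, 1.34 and 2.67 in controls and 80.2 and 100.2 after LPS. All 5 treated libraries exceeded all 12 controls, which reached 9.25 in A/J, and the log2 ratios were 3.94 (SE 0.49, edgeR adjusted p = 5.95e-07) and 4.63 (SE 0.50, adjusted p = 3.56e-08). The intron 6 peak at +7910 bp rose from 2 tags in all BALB/cJ controls to 108 in the LPS libraries, a ratio of 316 (95% counting interval 85.4 to 2645). This ratio pools depth over the libraries, and BALB/cJ control replicate 4, with 47.2 M tags in all, held 0 at the peak. The BALB/cJ group means of normalised tags there were 0.488 in controls and 47.3 after LPS. The Traf1 promoter peak at +155 bp, with 3.96 to 17.3 normalised tags in controls and 4.21 to 18.5 after LPS, was not called. Its BALB/cJ log2 ratio of 1.29 (SE 0.54, edgeR adjusted p = 0.061) passed without BALB/cJ control replicate 2 (1.50, adjusted p = 0.044).

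At Traf2, 4 of 7 tested peaks rose in C57BL/6J and 5 of 7 in BALB/cJ, and none fell. The intron 4 peak at +12191 bp held 1.16, 0, 1.30 and 5.32 normalised tags in C57BL/6J controls and 11.2, 26.3 and 51.8 after LPS (log2 ratio 3.97, SE 0.77, edgeR adjusted p = 0.00023). In BALB/cJ its controls held 2 tags in all and its LPS libraries 52, a ratio of 152 (95% counting interval 40.1 to 1291). This ratio also pools depth, with the deep BALB/cJ control replicate 4 at 0, and the BALB/cJ means were 0.573 and 22.7 normalised tags. Controls and treated libraries did not overlap in either strain. The strong Traf2 promoter peak at -74 bp held 248 and 208 normalised tags after LPS in BALB/cJ and 278 to 327 in its controls, a log2 ratio of -0.44 (SE 0.16, edgeR adjusted p = 0.029) that passed the p threshold but not the fold threshold. In C57BL/6J it held 316 to 375 after LPS and 338 to 401 in controls.

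Fewer members were called between strains in untreated mice than for LPS, and Tnfrsf1a held the most strain calls. Between C57BL/6J and BALB/cJ, 5 of 47 tested members were higher in C57BL/6J and 0 lower, against 3.13% and 4.16% of all tested peaks. Called in all were 10.6% of the tested members and 7.29% of all tested peaks. Between A/J and C57BL/6J 1 of 47 was higher in A/J and 5 lower (12.8% called, against 7.16% of all peaks). Between A/J and BALB/cJ 1 of 44 was higher in A/J (2.27%, against 4.57%). The comparisons share control libraries. After LPS 2 of 59 members were higher in C57BL/6J than in BALB/cJ and 0 lower, against 2.45% and 2.84% of all tested peaks (5.29% in all).

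The intron 5 peak of Tnfrsf1a at +10477 bp held 141, 177, 148 and 128 normalised tags in C57BL/6J controls. It held 36.9, 24.4, 43.0 and 52.2 in BALB/cJ and 38.5, 27.4, 30.5 and 45.4 in A/J controls. After LPS it held 124, 194 and 211 in C57BL/6J, while BALB/cJ held 41.8 and 71.2. Every C57BL/6J library, treated or not, exceeded every library of the other strains. The log2 ratio of C57BL/6J to BALB/cJ was 1.87 (SE 0.24, edgeR adjusted p = 2.97e-07) in controls and 1.65 (SE 0.31, adjusted p = 0.00038) after LPS, and that of A/J to C57BL/6J was -2.07 (SE 0.26, adjusted p = 2.22e-07). A further peak of this gene at -7376 bp, in intron 7 of Scnn1a, was higher in C57BL/6J than in BALB/cJ controls by 1.49 (SE 0.39) and after LPS by 2.00 (SE 0.52), and lower in A/J than in C57BL/6J by a log2 ratio of -1.74 (SE 0.44). The intron 1 peaks at +1823 and +2372 bp were lower in A/J than in C57BL/6J (log2 ratios -1.19 with SE 0.33 and -1.12 with SE 0.26).

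Ltb showed the opposite order. Its intergenic peak at -1321 bp held 41.2, 62.6, 29.9 and 35.9 normalised tags in C57BL/6J controls, 91.0, 80.0, 87.2 and 54.7 in BALB/cJ and 91.0, 104, 71.2 and 124 in A/J. A/J lay above C57BL/6J in every library (log2 ratio 1.22, SE 0.26, edgeR adjusted p = 0.0012), while one BALB/cJ library fell within the C57BL/6J range. The log2 ratio of C57BL/6J to BALB/cJ of -0.87 (adjusted p = 0.024) passed the p threshold and not the fold threshold, which it passed without BALB/cJ replicate 4 (-1.03) or C57BL/6J replicate 2 (-1.10).

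The remaining strain calls concerned Tnfsf9 and Traf2. The Tnfsf9 promoter peak at +93 bp held 29.0, 69.0, 16.9 and 7.98 normalised tags in C57BL/6J controls, 11.9, 9.75, 10.7 and 8.39 in BALB/cJ and 6.17, 6.56, 6.10 and 7.82 in A/J. C57BL/6J replicate 4 lay at the level of the other strains, and the log2 ratio to BALB/cJ of 1.61 (SE 0.49, edgeR adjusted p = 0.029) no longer passed without C57BL/6J replicate 1 or without BALB/cJ replicate 3 or 4. The neighbouring Tnfsf9 peak at -804 bp held 37.7, 53.0, 9.10 and 10.6 in C57BL/6J controls, against 10.6, 13.6, 1.34 and 1.57 in those of BALB/cJ (log2 ratio 2.31, SE 0.68, edgeR adjusted p = 0.023), with overlapping groups and no call by DESeq2. The Traf2 peak at -2691 bp, with its pair of kappa B matches, held 115, 117, 54.6 and 53.2 in C57BL/6J controls, 26.4, 47.8, 26.9 and 7.19 in those of BALB/cJ and 67.8, 124, 114 and 23.5 in A/J. C57BL/6J lay above BALB/cJ in every library (log2 ratio 1.84, SE 0.42, edgeR adjusted p = 0.0028), and A/J, which overlapped BALB/cJ, was higher by 1.78 (SE 0.43, adjusted p = 0.0070), a call that DESeq2 did not make and that was lost without A/J replicate 2 (1.49). After LPS this Traf2 peak held 101 and 66.8 in BALB/cJ, a rise of 1.81 on the log2 scale (SE 0.48, edgeR adjusted p = 0.0038) that was lost without BALB/cJ LPS replicate 1 (1.50).

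In CB6F1/J hybrids the tags that span a variant allowed a test at 22 of the 160 member peaks. The other 138 were below the minimum count, among them all peaks of Tnfrsf1b, Traf1 and Traf2. After LPS 6 rose and 2 fell, where 24.6% of all tested peaks were called. With all tags of the hybrids, counted on the C57BL/6J genome, 54 of 157 rose and 10 fell (26.9% of all peaks called, 16.3% higher and 10.6% lower). By gene 6 of 6 Tnf peaks, 7 of 15 of Lta, 9 of 12 of Tnfsf9, 4 of 29 of Tnfrsf1a, 14 of 52 of Tnfrsf1b, 8 of 28 of Traf1, 6 of 12 of Traf2 and 0 of 3 of Ltb rose on all tags, and the falls were 9 at Tnfrsf1b and 1 at Traf1.

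The Tnf peaks responded strongly in the hybrids, at the promoter only on all tags. The peak at -604 bp, matching the inbred one at -587 bp, held 25.9, 26.0, 25.0 and 28.6 normalised variant-spanning tags in controls and 148, 188, 205, 185 and 146 after LPS (log2 ratio 2.72, SE 0.25, edgeR adjusted p = 1.10e-09). The peak at +1357 bp held 70.8, 60.1, 90.1 and 73.2 in controls and 252, 299, 246, 192 and 248 after LPS (1.75, SE 0.20, adjusted p = 1.10e-07). Neither pair of groups overlapped, and all tags gave 3.04 (SE 0.20) and 1.96 (SE 0.16). At -604 bp the tag counts of the alleles were nearly equal in every animal. Whether the same reads were counted for both alleles was not tested, and if they were, the summed variant-spanning tags are too high and their SE too small. The promoter peak at -51 bp held 96.7, 77.9, 115 and 68.6 variant-spanning tags in controls and 83.6, 80.5, 69.6, 76.8 and 83.9 after LPS (log2 ratio -0.18, SE 0.24, adjusted p = 0.62). On all tags, however, the same peak held 130, 142, 152 and 135 in controls and 559, 617, 547, 556 and 625 after LPS, a rise of 2.05 on the log2 scale (SE 0.16, edgeR adjusted p = 9.35e-12). The matching inbred peak at -49 bp, also counted on all tags, did not rise in either parent strain. Its mean was 150 normalised tags in C57BL/6J controls and 113 after LPS, and 123 and 115 in BALB/cJ. The tag sets of the hybrids differ at this promoter, the hybrid rise on all tags differs from both parent strains, and why was not tested.

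Other members of the hybrids rose on both tag sets. The Tnfsf9 peak at -1718 bp held 0 to 2.73 variant-spanning tags in controls and 12.9 to 35.7 after LPS (log2 ratio 4.06, SE 0.82, edgeR adjusted p = 0.00032), and the one at -6916 bp 4.10 to 9.15 and 26.4 to 54.0 (2.24, SE 0.49, adjusted p = 0.00087). All tags gave 1.96 and 2.34 at these peaks. The Lta peak at -2991 bp held 0 to 17.9 in controls and 20.2 to 34.9 after LPS (1.62, SE 0.60, edgeR adjusted p = 0.043), and all tags gave 1.44. The call was lost without any one of 8 of the 9 animals, with log2 ratios from 1.11 to 1.74. The matching inbred Lta peak at -2983 bp, with 29.9 to 45.2 normalised tags in C57BL/6J controls and 13.5 to 22.5 after LPS, had a log2 ratio of -0.99 (adjusted p = 0.059) and was not called. Without C57BL/6J LPS replicate 1 it was called lower (-1.14, adjusted p = 0.046), opposite to the hybrid value. At Tnfrsf1a the peak at +1758 bp rose by 2.03 (SE 0.32) on variant-spanning tags and had 0.68 (SE 0.19) on all tags, under the fold threshold. The Tnfrsf1a peak at -365 bp fell by 1.69 (SE 0.64, adjusted p = 0.048) on variant-spanning tags, and all tags gave -0.02. Its groups overlapped, and the call was lost without any one of 7 of the 9 animals. The Tnfrsf1a peak at +14366 bp, which lies past the gene's end, was lower on variant-spanning tags (log2 ratio -2.39, SE 0.88, adjusted p = 0.042) and not called on all tags (-0.67).

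Members that the variant-spanning tags could not test moved on all tags. The Tnfrsf1b peak at -27195 bp held 10.6, 13.2, 6.41 and 1.80 normalised tags in hybrid controls and 438, 427, 485, 518 and 407 after LPS (log2 ratio 5.79, SE 0.27, edgeR adjusted p = 6.09e-16). The Traf1 peak at +3031 bp held 25.2 to 41.2 and 317 to 402 (3.50, SE 0.21), and the Traf2 peak at +12187 bp 5.87 to 22.6 and 120 to 166 (3.63, SE 0.31). The Tnfrsf1b peak at +12785 bp fell by 1.30 (SE 0.20), from 241 to 391 in controls to 107 to 182 after LPS. At each of these, hybrid controls and treated animals did not overlap.

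Between the alleles of the hybrids, 4 members could be tested in controls and 8 after LPS. In controls 0 were higher and 1 lower on the C57BL/6J allele, where 6.2% and 5.86% of all tested peaks were called (12.1% in all), and after LPS 1 was higher and 1 lower, where 8.96% and 7.23% were (16.2% in all). The higher one was the Tnfrsf1a peak at +10539 bp, matching the inbred +10477 bp peak. After LPS its C57BL/6J allele held 104, 120, 70.5, 120 and 66.7 normalised tags and its BALB/cJ allele 47.9, 49.6, 23.4, 45.2 and 24.9 in the same animals. The C57BL/6J allele had 68.4% to 75.1% of the tags in each of the 5 treated animals and 50.3% to 77.9% in the 4 controls. The log2 ratio was 1.35 (SE 0.22, edgeR adjusted p = 0.0012) after LPS and 0.91 (SE 0.27, adjusted p = 0.040) in controls, where it did not reach the fold threshold. It reached it without CB6F1/J control replicate 4 (1.28) or 2 (1.03).

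The lower one was the Ltb peak at -1377 bp, matching the inbred -1321 bp peak. Its C57BL/6J allele held 13.0, 19.6, 5.89 and 3.29 normalised tags in controls and its BALB/cJ allele 29.5, 39.3, 12.4 and 18.0. The C57BL/6J share was 15.5% to 33.3% in controls and 19.0% to 36.5% after LPS, below 50% in 9 of 9 animals. The log2 ratios were -1.33 (SE 0.34, edgeR adjusted p = 0.023) in controls and -1.38 (SE 0.29, adjusted p = 0.0054) after LPS. Both allele differences had the direction of the strain difference at the matching inbred peak. The Ltb call in controls was lost without CB6F1/J control replicate 1 or 4.

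**Figure D4:**
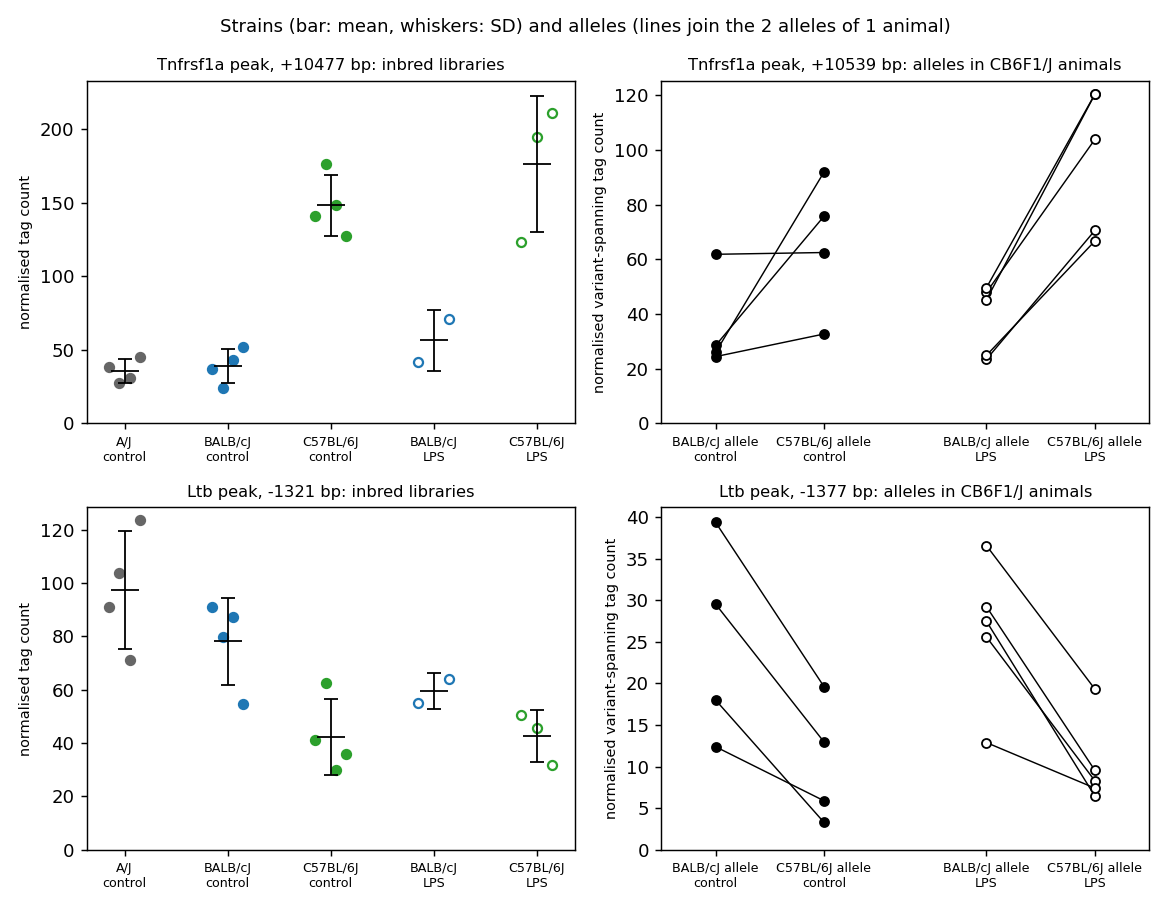
Normalised tags (y axes, linear from 0) at the Tnfrsf1a peak (top) and the Ltb peak (bottom), in inbred libraries by group (left; bar, mean; whiskers, SD) and on the alleles of the hybrids (right; a line joins the alleles of an animal, open points are LPS). At Tnfrsf1a the C57BL/6J allele is higher in each of the 5 treated hybrids, and at Ltb it is lower in all 9 animals.

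At the Tnf promoter peak and the +1357 bp peak the alleles were not called. The log2 ratio of the C57BL/6J to the BALB/cJ allele at -51 bp was -0.09 (95% interval -0.55 to 0.36) in controls and -0.04 (-0.43 to 0.36) after LPS, and at +1357 bp 0.14 (-0.19 to 0.47) and 0.05 (-0.18 to 0.29). The Tnf peak at -604 bp was set aside, since its alleles were more alike than independent counts usually are, for a reason that was not tested. The squared difference of the alleles' tags over their sum, about 1 for independent counts, averaged 0.036 over the animals there, against a median of 3.74 over the 7953 hybrid peaks with more than 200 tags. It was under 0.2 at 1.71% of those peaks. The allele ratio at -604 bp is therefore not read as a comparison of alleles. The LPS response did not pass the test between alleles at any of 18 members by edgeR (0% of all peaks called). At an unadjusted p under 0.05 there was 1 member, against 1414 of all 18218 tested peaks, and DESeq2 called 0 of the 18.

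The authors' lists of peaks that replicate, made per group from pairs of libraries, held 38 of the 79 inbred members in A/J controls, 42 in BALB/cJ controls, 43 in C57BL/6J controls, 47 after LPS in BALB/cJ and 61 after LPS in C57BL/6J, at a reciprocal overlap of 50%. In the same order the lists held 58786, 81161, 63145, 58929 and 65093 peaks in all. The share of all inbred peaks found in each list was not computed, so the counts are not read as a trait of the members. The depths and replicate numbers of the groups differ, and these counts were not tested.

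The rest of the pathway was taken as 4 lists of 57 genes. Over all lists 80 of the 442 peaks tested in C57BL/6J rose and 22 fell (23.1% called, against 20.4% of all peaks), and 108 of 449 rose and 27 fell in BALB/cJ (30.1%, against 27.6%). Of the peaks of other TNF superfamily ligands 30 of 97 rose and 5 fell in C57BL/6J, and 38 of 98 rose and 6 fell in BALB/cJ, which is 36.1% and 44.9% called. Among them the peak at +11171 bp of Tnfsf4, the ligand of the T cell receptor OX40, rose by 4.72 (SE 0.60) in C57BL/6J, and that at +26621 bp of Tnfsf13b, the B cell survival factor BAFF, by 3.46 (SE 0.45). In BALB/cJ the peak at -8006 bp of Tnfsf15 rose by 5.35 (SE 0.63). For the receptor complex and its ubiquitin machinery the counts were 30 higher and 12 lower of 216 in C57BL/6J and 45 and 16 of 220 in BALB/cJ, with the Traf5 peak at +1592 bp (3.09, SE 0.38) and the peak at +11779 bp of Birc2, a ubiquitin ligase of the complex (1.88, SE 0.23), leading in BALB/cJ. The other receptors had 18 higher and 3 lower of 97, and 23 and 3 of 100, led in C57BL/6J by the peak at +31568 bp of Tnfrsf8 (4.32, SE 0.58). The genes that process the ligand had 2 higher and 2 lower of 32, and 2 and 2 of 31.

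In the strain comparison of controls, 9 of 236 tested peaks of these lists were higher and 8 lower in C57BL/6J than in BALB/cJ (7.2%). Those with the smallest p were at +55961 bp of Tnfrsf21, lower in C57BL/6J (log2 ratio -3.15, SE 0.36), at -16037 bp of Adam17, the protease that releases TNF (3.87, SE 0.50), and at -179255 bp of Tab2 (3.09, SE 0.45). In the hybrids the promoter of Ltbr, the receptor of the lymphotoxin complex, favoured the C57BL/6J allele in controls (1.22, SE 0.22) and after LPS (1.36, SE 0.18).

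The promoter peaks whose levels ran most like that of Tnf over the 17 inbred libraries, of 10045 candidate genes, were those of Ttf1 (Pearson r 0.873), Trex1 (0.871), Peak1 (0.864), Nop58 (0.861) and Grap (0.860), as correlations of log2 levels. None of the 5 was among the top 5 over the 12 control libraries alone or over the 5 LPS libraries alone. Depth and the strains are shared by these points, and the order is a description only.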

How the data were processed

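ATAC-seq was measured in 26 libraries of Kupffer cells sorted by flow cytometry. The authors trimmed reads to 30 bp, mapped them with Bowtie2 to mm10 or, for BALB/cJ and A/J, to a genome carrying that strain's known variants, merged the replicated peaks and counted tags with HOMER in windows of 1000 bp. The deposited counts of LPS-treated inbred mice are whole, and the deposited expected counts of inbred controls and of hybrids come in steps of 0.5. For hybrids the deposited columns give variant-spanning tags per allele and all tags, and 27 further hybrid columns were not used. The score of the deposited peak lists served as a limit (830 or more) in an alternative. The authors ranked these lists by replicate reproducibility and used DESeq2.

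Here expected counts were rounded up and tested in edgeR 4.0.16 (R 4.3.3) by the quasi-likelihood method with TMM scaling, over all peaks with a mean normalised count above 16 (strains, alleles) or 4 (LPS and differences of responses). A peak was called at a Benjamini-Hochberg adjusted p under 0.05 and an absolute log2 ratio over 1, which the words rose, fell, higher and lower of tested peaks refer to. SE is the log2 ratio over the root of the F statistic. Normalised counts are tags over relative effective library size. All 17 inbred libraries entered a single fit, and the allele fit kept the animal as a block. DESeq2 1.42.0 was an alternative. Code was tested on simulated data. The study's methods call the libraries biological replicates, and the p-values measure the spread between them. Counting intervals cover counting error only.

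Values per library are given for the strongest peak at each start and for the called peak of smallest p per gene and comparison, with further members named after their values were seen. Genes outside the set come from 4 lists, with at most the 3 calls of smallest p per comparison. Peaks matched between tables share at least 100 bases. The members and lists were chosen with earlier results of these data known. No pair of libraries agreed within counting error.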

Additional observations from a re-analysis of the deposited data

Results flagged for a closer look

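Over 31 named peaks, 80 groups of 4 or more libraries were examined for a library far from the rest, and 4 were found. Chance flags about 1 group in 20, which over 80 groups gives about this number. The Ltb peak at -16 bp held 16.6 normalised tags in BALB/cJ control replicate 2, against 7.74 to 9.23 in the other BALB/cJ controls. The same Ltb peak held 1.33 in C57BL/6J control replicate 4, against 4.64 to 5.20 in the others. The Tnfrsf1b peak at -27187 bp held 1.30 in C57BL/6J control replicate 3 and 0 in the other 3 C57BL/6J controls. The Traf2 peak at -74 bp held 278 in BALB/cJ control replicate 4, the deepest library, against 319 to 327 in the others.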

How the results depend on the processing

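Each count of called members was recomputed under other choices, and no called result changed direction. For C57BL/6J against BALB/cJ in controls (5 calls), leaving out a library gave 3 to 6, the lower end without BALB/cJ control replicate 3 or C57BL/6J control replicate 1, and thinning to the smallest library, chosen after seeing the data, gave 2. For A/J against BALB/cJ (1), DESeq2 gave 0, leaving out a library 0 to 2 (0 without A/J control replicate 2) and thinning 2. For LPS in C57BL/6J (23), leaving out a library gave 15 to 32 (15 without LPS replicate 3), and in BALB/cJ (32) 21 to 38 (21 without LPS replicate 2). For C57BL/6J against BALB/cJ after LPS (2), a fit of only the groups compared gave 1, thinning 1 and leaving out a library 2 to 4. The difference of LPS responses (0) gave 0 to 1. In hybrids the LPS count (8) was 64 with all tags, 5 to 8 without a library, and 5 with the LPS animals of the first date and 5 with those of the second, both chosen after seeing the data. The allele counts in controls (1) were 0 without a minimum count and 0 to 1 without a library. After LPS (2) they were 1 to 2 without a library, 0 with the first date and 1 with the second. The causes were not tested. Tnf peaks were called in C57BL/6J after LPS at 0 of 6 peaks by edgeR, at 1 of 6 by DESeq2 (+1381 bp) and at 2 of 6 without C57BL/6J LPS replicate 1, and in BALB/cJ at 1 of 6 by edgeR and 0 by DESeq2. Limits: 138 of 160 hybrid members had too few variant-spanning tags to test, the BALB/cJ LPS group has 2 libraries, and control counts near 0 leave the largest ratios imprecise.

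Libraries with the same number did not deviate together in all pairs, so the numbers were not treated as pairing in the main fits. Over 29 inbred pairs r ran from -0.097 to 0.37, and over 4 hybrid pairs from -0.020 to 0.013. Between strains, however, controls numbered 2 (r 0.37, 0.23 and 0.29) and 4 (0.36, 0.20 and 0.24) did deviate together. For controls numbered 1 and 3 r was lower (0.054 to 0.12). The main strain tests do not account for this. With the replicate number as a block, C57BL/6J against BALB/cJ after LPS gave 4 calls in place of 2, and the hybrid LPS count was 6 in place of 8. Blocked counts of the other inbred comparisons were 5, 1, 7, 21, 32 and 0. For alleles, where the animal is the block, the fit with no replicate block gave 0 in controls in place of 1. Over all alternatives, 1872 values of single peaks stayed on their side of the threshold or within the spread, 42 lost a call, 17 gained one and 18 values with no call moved further.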
